A study of Mus musculus with 24 samples.

Results

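The collagen genes of the mouse are the protein-coding genes whose symbol has the form Col, a type number, the letter a and a chain number, each encoding the alpha chain of a collagen. The count files listed 39179 genes, and 44 of them, in 27 collagen types, matched this form. All 44 had at least 1 read in the 24 libraries. After a filter on low counts 42 of the 44 could be tested, and Col10a1 and Col19a1 could not. The members comprised 11 fibril-forming chains, 6 chains of the basement membrane network (type IV), 6 beaded-filament chains (type VI), 1 anchoring-fibril chain (Col7a1), 3 short-chain network collagens (types VIII and X), 9 fibril-associated chains, 4 transmembrane collagens, 2 multiplexins (Col15a1 and Col18a1) and 2 others (Col26a1 and Col28a1).

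Collagens are secreted or membrane-bound proteins in which alpha chains wind into a triple helix. Types I, III and V build the fibrils of the lamina propria and submucosa of the gut, type IV forms the sheet beneath epithelium, vessels and muscle, and type VI forms microfilaments between both. Fibroblasts make most fibrillar collagen, while epithelium, endothelium and smooth muscle also make type IV and type XVIII collagen.

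RNA was sequenced from dissected mouse gut in 8 groups of 3 libraries. The wild-type cecum, the wild-type stomach and the cecum of mice labelled Cdx2+/- were untreated. The 6 cecum libraries labelled conditional Cdx2-/- came from Cdx2f/f::AhCreERT mice given Tamoxifen and bnaphthoflavone (β-naphthoflavone), in which a CreERT driven by the Cyp1a1 (Ah) promoter deletes Cdx2, an intestinal homeobox gene. Their codes fall into 2 sets, replicates 1 to 3 (set 1) and 4 to 6 (set 2). The same alleles and treatment with a mutant Apc allele, Cdx2f/f::AhCreERT::ApcD14/+, gave the Cdx2-/- Apc+/- cecum and the Cdx2-/- Apc+/- ileum. The last group was an untreated ileum titled Apc+/-. Its replicate 2 is given as ApcD14/+, whereas the genotype entries of replicates 1 and 3 name Cdx2f/f::AhCreERT::ApcD14/+ and their descriptions a Cdx2 allele that is not floxed. Treatment went with the Cdx2-/- genotype throughout, so that the agents and the loss of Cdx2 cannot be told apart. Deletion follows the cells in which the Cyp1a1 promoter is active. Nothing in the labels states whether replicates came from separate animals, and p-values may therefore measure technical spread only.

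Levels are given as CPM, gene reads scaled to a common library size by the trimmed mean of M values (TMM), and levels of different genes are compared as FPKM, the same value per kilobase of the principal mRNA. Libraries held 36567685 to 87975179 gene reads, of which collagen genes took 0.0678% to 0.727%. Cdx2 stood at 408 to 663 CPM in the wild-type cecum and at 130 to 349 CPM in the 6 Cdx2-/- libraries. The 3 libraries labelled Cdx2+/- held 115 to 118 CPM, less than any Cdx2-/- cecum library, and in the ileum the libraries labelled Apc+/- (63.3 to 112 CPM) lay within the range of those labelled Cdx2-/- Apc+/- (36.9 to 178 CPM). Directions drawn from these labels below therefore rest on the labels, not on Cdx2. Wild-type cecum replicate 3 stood apart with 4126 CPM of summed smooth muscle markers against 1233 and 2140 CPM in the other two. Set 1 replicates 2 and 3 were nearly alike, with a chi-square per degree of freedom of 7.03 against 53.0 to 507 for other pairs within a group. They differed by more than sampling noise, which does not show that they came from separate animals, and were kept as 2 libraries. Xist, expressed from an inactive X chromosome, was at 666 to 816 CPM in set 1 and at most 2.19 CPM elsewhere, so that sex and set cannot be told apart. The epithelial markers Epcam, Cdh1 and Krt8 were present in all 8 groups.

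Upstream sequences (RefSeq, GRCm38.p6) are shown for 5 members on which the results below turn. Col18a1, Col11a2 and Col16a1 rose steeply in the Cdx2-/- cecum, Col23a1 separated the Cdx2-/- from the Cdx2+/- libraries, and Col1a2 represents the fibrils. Each line is the longest stretch outside coding-gene exons in the 250 bases before the outermost start of the RefSeq table, 5′ to 3′ on the gene's strand. The Col1a2 stretch lies inside the gene as GENCODE annotates it, in an intron of a transcript that starts further upstream at position 4504814. Capitals mark the TATA box motif TATAAA, the box motif CCAAT of many promoters and the GC box core GGGCGG, each searched on both strands, so that a match on the opposite strand reads as its reverse complement.
Col18a1, chr10:77166549-77166780, minus strand: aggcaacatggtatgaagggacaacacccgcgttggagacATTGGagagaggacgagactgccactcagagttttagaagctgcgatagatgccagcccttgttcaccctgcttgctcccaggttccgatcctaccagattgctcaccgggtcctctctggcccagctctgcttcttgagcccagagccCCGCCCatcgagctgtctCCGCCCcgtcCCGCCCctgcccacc
Col16a1, chr4:130047590-130047839, plus strand: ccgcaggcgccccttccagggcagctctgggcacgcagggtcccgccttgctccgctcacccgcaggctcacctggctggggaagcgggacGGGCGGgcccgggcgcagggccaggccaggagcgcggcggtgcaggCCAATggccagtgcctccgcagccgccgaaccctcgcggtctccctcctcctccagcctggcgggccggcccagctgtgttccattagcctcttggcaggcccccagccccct
Col11a2, chr17:34038888-34039137, plus strand: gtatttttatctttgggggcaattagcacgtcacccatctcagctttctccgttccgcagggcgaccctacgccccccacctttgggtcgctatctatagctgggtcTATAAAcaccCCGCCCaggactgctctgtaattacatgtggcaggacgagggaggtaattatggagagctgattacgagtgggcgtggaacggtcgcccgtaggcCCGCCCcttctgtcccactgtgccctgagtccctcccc
Col23a1, chr11:51289670-51289919, plus strand: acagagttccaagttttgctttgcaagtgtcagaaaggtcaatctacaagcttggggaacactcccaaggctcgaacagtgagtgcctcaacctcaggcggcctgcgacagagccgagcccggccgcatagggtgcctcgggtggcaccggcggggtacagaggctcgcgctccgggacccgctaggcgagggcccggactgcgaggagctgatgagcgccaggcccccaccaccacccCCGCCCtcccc
Col1a2, chr6:4505370-4505492, plus strand: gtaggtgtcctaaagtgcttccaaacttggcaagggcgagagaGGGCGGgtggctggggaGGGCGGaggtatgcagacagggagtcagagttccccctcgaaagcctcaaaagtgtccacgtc
Of the 44 members 35 had an entry in the promoter table. GGGCGG occurred in the 250 bases before a start of 21 of these 35. The members had 38 such windows, of which 22 held GGGCGG, beside 32.7% of 32817 windows over all genes. CCAAT occurred in 13 members, in 13 of the 38 member windows and in 33.8% of all windows. TATAAA occurred in 5 members (Col3a1, Col10a1, Col11a2, Col13a1 and Col17a1), in 5 of the 38 member windows and in 12.4% of all windows. The upstream stretch of Col18a1 held 3 GGGCGG matches and 1 CCAAT match, all on the opposite strand. Several collagen genes lie side by side. Col4a1 and Col4a2 (chromosome 8), Col4a3 and Col4a4 (chromosome 1) and Col4a5 and Col4a6 (chromosome X) are transcribed away from each other, and the annotated exons of Col4a1 and Col4a2 overlap by 22 bases.

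In the wild-type cecum Col3a1, the type III chain of loose connective tissue, had the highest level per length at 57.5 ± 32.2 FPKM (SD, n = 3). It was followed by the type VI chains Col6a1 (31.1 ± 10.6 FPKM) and Col6a2 (26.7 ± 9.81 FPKM), by Col1a2 (25.7 ± 9.99 FPKM) and by Col4a1 (21.5 ± 5.62 FPKM). The ranges of these last 4 overlapped. By group mean Col3a1 ranked first in all 8 groups, although in set 1 replicates 2 and 3 Col18a1 (92.2 and 82.4 FPKM) lay above Col3a1 (85.9 and 81.5 FPKM). Col18a1, the multiplexin of basement membranes whose C-terminal fragment is endostatin, ranked 9 in the wild-type cecum (8.03 ± 2.42 FPKM) and 2 in the Cdx2-/- cecum (82.7 ± 23.2 FPKM, n = 6). The library kit does not mark strand, so reads of a gene and an antisense partner cannot be told apart, and 10 members share exon bases with another counted gene, the longest stretch being 563 bases of Col4a3.

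In the Cdx2-/- cecum 22 of the 42 tested collagen genes were higher than in the wild-type cecum and 3 were lower. Calls here and below are edgeR quasi-likelihood tests over 20502 genes at a Benjamini-Hochberg adjusted p under 0.05. Over all genes tested 26.9% were called higher and 26.2% lower. The median log2 fold change was 1.00 over the members and 0.04 over all genes. In 18 of the 42 members the 2 groups did not overlap, beside 39.4% of all genes. Without TMM scaling the median of all genes shifted to 0.46, the members called became 26 higher and 1 lower, and the share of higher among all called genes went from 50.7% to 73.9%. Without wild-type replicate 3 only 1 member was lower. Col19a1, a fibril-associated chain, had 4, 3 and 25 reads in the wild-type libraries and at most 3 in any Cdx2-/- library. It was too low for the filter with all libraries, but was tested and called lower without the filter and in most fits with 1 library fewer. In bulk tissue more cells of a collagen-producing type and more RNA per cell cannot be told apart.

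Of the 11 fibril-forming chains 9 rose and Col11a1 fell. Col1a1, the main chain of type I collagen, stood at 92.1, 51.9 and 128 CPM in the wild-type cecum, and at 177, 241 and 350.4 CPM (lowest, median and highest) in the 6 Cdx2-/- libraries, all of which lay above all wild-type libraries. Its partner chain Col1a2 had 128, 89.0 and 195 CPM against 243, 267 and 526 CPM (again lowest, median and highest of 6), and again the groups did not overlap. Below, 3 values given for the Cdx2-/- cecum as a whole are likewise the lowest, median and highest of its 6 libraries. Col1a1 rose by 1.48 ± 0.32 (SE, adjusted p = 7.9e-04) and Col1a2 by 1.15 ± 0.25 (SE, adjusted p = 8.2e-04) on the log2 scale. Col3a1 had 243, 192 and 525 CPM in the wild-type and 453, 598 and 1014 CPM in the Cdx2-/- cecum. Here wild-type replicate 3 fell inside the Cdx2-/- range. Col3a1 rose by 0.98 ± 0.30 (SE, adjusted p = 0.0093), a call that was lost without wild-type replicate 1 (0.82, adjusted p = 0.062) or replicate 2 (0.72, adjusted p = 0.074) and grew to 1.54 without replicate 3.

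The minor fibrillar chains of type V, which sit inside type I fibrils and limit their width, also rose. Col5a1 had 36.8, 25.1 and 54.7 CPM in the wild-type cecum and 56.3, 71.0 and 115 CPM in the Cdx2-/- cecum. Col5a2, the neighbour of Col3a1 on chromosome 1, had 40.3, 32.9 and 76.7 CPM against 65.7, 111 and 216 CPM, with wild-type replicate 3 above the lowest Cdx2-/- library. Col5a3 had 12.4, 8.20 and 18.2 CPM against 21.5, 28.2 and 56.0 CPM, and the groups did not overlap. The 3 log2 fold changes were between 1.01 and 1.29, with adjusted p-values from the edgeR fit of 0.0015 to 0.0043. Col27a1, a fibril-forming chain found in cartilage among other tissues, had 8.48, 6.97 and 15.4 CPM against 20.6, 25.2 and 28.7 CPM. No Cdx2-/- library was as low as any wild-type library, and Col27a1 rose by 1.30 ± 0.27 (SE, adjusted p = 4.9e-04). Its relative Col24a1 rose by 1.999 ± 0.40 (SE, adjusted p = 3.5e-04).

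The 2 chains of type XI collagen, a cartilage fibril component, moved apart. Col11a2 had 4.24, 4.56 and 2.67 CPM in the wild-type and 11.9, 24.0 and 58.0 CPM in the Cdx2-/- cecum, without overlap, and rose by 2.92 ± 0.45 (SE, adjusted p = 2.7e-05). Col11a1 stood at 0.477, 0.188 and 2.02 CPM against 0.118, 0.213 and 0.356 CPM. Only wild-type replicate 3 was clearly high. The fall of Col11a1, -2.08 ± 0.75 (SE, adjusted p = 0.026), shrank to -0.61, adjusted p = 0.57 without that library, and its call was also lost without set 1 replicate 3 (-1.94, adjusted p = 0.055) or set 2 replicate 4 (-2.004, adjusted p = 0.051) or 5 (-1.93, adjusted p = 0.056). The summed chondrocyte markers reached at most 1.38 CPM in these cecum groups. Col2a1, the main cartilage collagen, had at most 4 reads in any wild-type or Cdx2-/- cecum library.

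**Figure D1:**
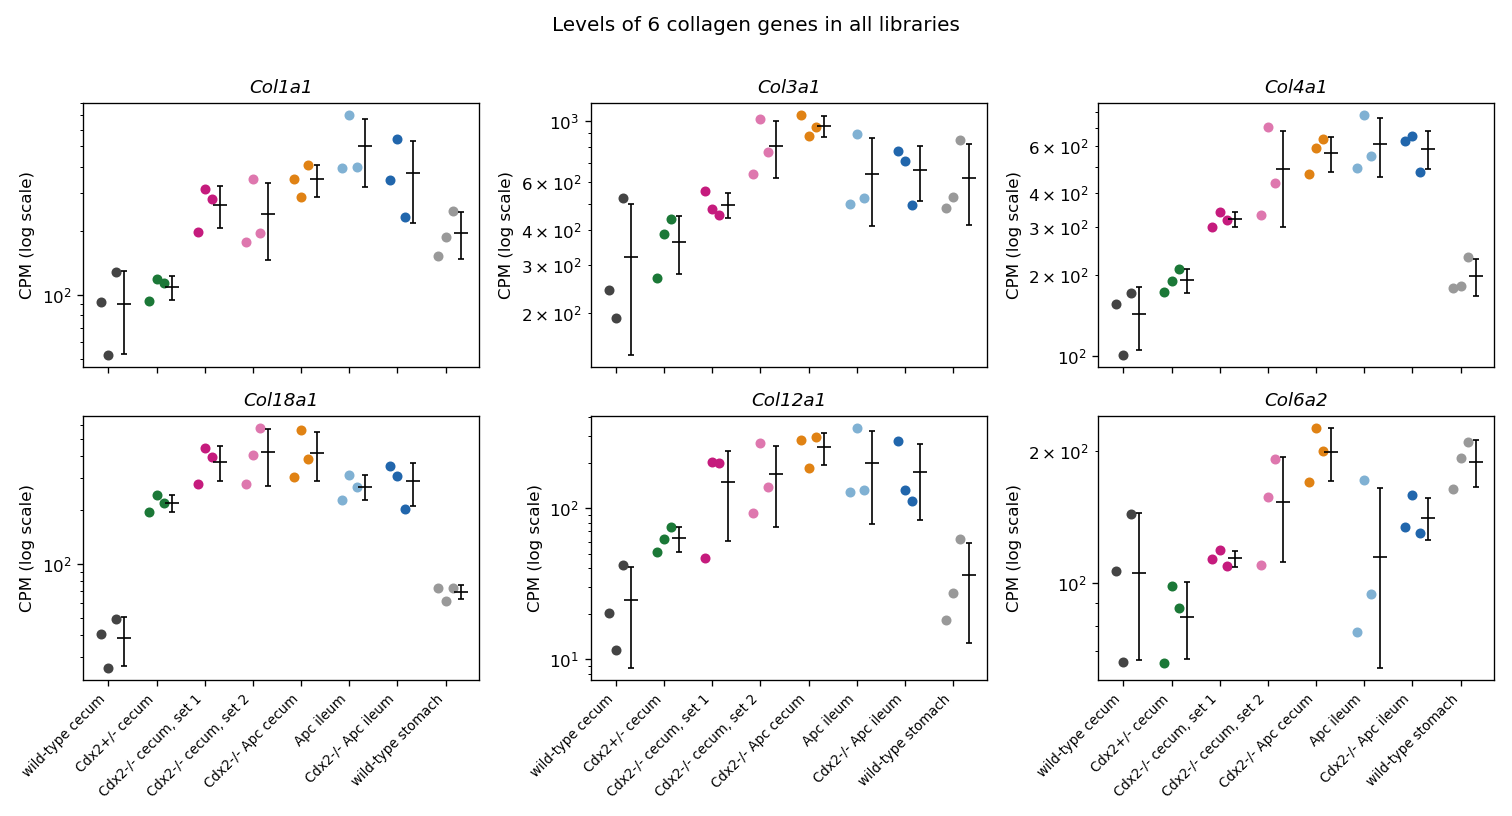
Levels of 6 collagen genes by group, on a logarithmic axis of TMM-scaled CPM. Points are libraries, and the dash with bar is the mean ± SD of 3 libraries. Col1a1, Col4a1 and Col18a1 in both Cdx2-/- sets lie above all wild-type cecum libraries, whereas Col6a2 overlaps them.

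Among the basement membrane chains the ubiquitous pair rose. Col4a1 had 156, 100.4 and 171 CPM in the wild-type and 301, 337 and 703 CPM in the Cdx2-/- cecum, and its partner Col4a2 had 116, 77.1 and 123 CPM against 181, 214 and 376 CPM. Neither gene overlapped between the groups. Col4a1 rose by 1.48 ± 0.23 (SE, adjusted p = 2.5e-05) and Col4a2 by 1.16 ± 0.23 (SE, adjusted p = 3.7e-04). The ratio of Col4a1 to Col4a2 per length was 1.27 to 1.90 over all 24 libraries. Of the pair that meets in the kidney filter, Col4a4 rose by 2.21 ± 0.51 (SE, adjusted p = 0.0013) from 0.344, 0.251 and 0.743 CPM to 0.805, 2.58 and 3.15 CPM, whereas Col4a3 was not called (0.42 ± 0.28, adjusted p = 0.22). The ratio of Col4a3 to Col4a4 was 4.93 in the wild-type cecum, 1.28 in set 1 and 1.20 in set 2.

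The X-linked type IV chains were not called. Col4a5 had 7.60, 4.94 and 16.7 CPM in the wild-type, 12.8, 11.4 and 10.6 CPM in set 1 and 25.6, 27.0 and 22.5 CPM in set 2. Set 2 lay above the wild-type range and set 1 inside it. The log2 fold change of Col4a5 was 0.80 ± 0.35 (SE, adjusted p = 0.061) and passed without wild-type replicate 3 at 1.45, adjusted p = 0.0024. Col4a6 had 3.84, 2.80 and 8.96 CPM against 1.87, 5.22 and 9.71 CPM, with overlapping groups (-0.17 ± 0.47, adjusted p = 0.78).

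Of the 6 type VI chains 1 rose. Col6a1 had 130.4, 82.6 and 169 CPM in the wild-type and 121, 147 and 268 CPM in the Cdx2-/- cecum, and Col6a2 had 107, 66.3 and 144 against 109, 116 and 192 CPM. Both overlapped, and their log2 fold changes of 0.38 ± 0.23, adjusted p = 0.19 and 0.32 ± 0.24, adjusted p = 0.28 did not pass the edgeR test. Col6a1 passed without wild-type replicate 3 (0.64, adjusted p = 0.048). Col6a3, the long chain of the same trimer, had 51.8, 31.1 and 85.3 CPM against 72.3, 90.6 and 203 CPM and rose by 0.94 ± 0.32 (SE, adjusted p = 0.02). This call was lost without wild-type replicate 1 (0.89, adjusted p = 0.073) or 2 (0.65, adjusted p = 0.13). The alternative chains Col6a4, Col6a5 and Col6a6, neighbours on chromosome 9, were not called, with log2 fold changes of -0.28, -0.68 and -1.38.

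Of the 8 tested fibril-associated chains 4 rose and none fell. Col12a1, which coats type I fibrils, had 20.2, 11.5 and 42.2 CPM in the wild-type, 46.5, 201 and 199.9 CPM in set 1 and 92.5, 269 and 139 CPM in set 2. All 6 Cdx2-/- libraries lay above the wild-type range, set 1 replicate 1 only just. Col12a1 rose by 2.68 ± 0.59 (SE, adjusted p = 8.2e-04). Col16a1, a fibril-associated chain, had 17.0, 10.8 and 22.4 CPM against 29.2, 69.2 and 118 CPM, without overlap, and rose by 2.12 ± 0.36 (SE, adjusted p = 5.9e-05). Col9a3, a chain of the cartilage fibril partner type IX, went from 1.93, 1.86 and 0.877 to 4.49, 8.92 and 11.4 CPM and rose by 2.46 ± 0.38 (SE, adjusted p = 2.3e-05), while Col9a2 (0.26 ± 0.70, adjusted p = 0.77) was not called. Col20a1 was also called higher (1.23 ± 0.33, adjusted p = 0.0042), although set 2 replicate 6 (6.31 CPM) lay inside the wild-type range of 5.61 to 7.56 CPM.

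Col14a1, which coats fibrils of mature connective tissue, had 1.30, 1.25 and 17.6 CPM in the wild-type and 4.94, 7.93 and 24.8 CPM in the Cdx2-/- cecum. Wild-type replicates 1 and 2 lay below every Cdx2-/- library and replicate 3 above most of them. The log2 fold change of Col14a1 was 0.54 ± 0.71 (SE, adjusted p = 0.54), and 2.95, adjusted p = 0.0022 without replicate 3. Col8a1, a short-chain collagen of vessel walls, showed the same order, with 0.344, 0.230 and 4.46 CPM against 2.00, 3.70 and 9.14 CPM (1.38 ± 0.72, adjusted p = 0.12, and 3.95, adjusted p = 1.6e-04 without replicate 3). Col28a1 was the third such gene (0.47 ± 0.52, adjusted p = 0.47, and 2.21, adjusted p = 4.1e-04 without it). The other short chain, Col8a2, fell from 2.12, 1.88 and 3.13 to 0.461, 0.814 and 1.11 CPM (-1.65 ± 0.45, adjusted p = 0.0043), with no overlap.

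The multiplexins, which join basement membranes to the tissue beneath, both rose, and Col18a1 had the highest fold change of all members. Its levels were 40.3, 26.1 and 49.1 CPM in the wild-type, 281, 442 and 395 CPM in set 1 and 279.8, 404 and 578 CPM in set 2. The lowest Cdx2-/- library was several times higher than the highest wild-type library. The rise was 3.36 ± 0.29 (SE, adjusted p = 3.1e-08). Col15a1 had 18.4, 12.2 and 26.0 CPM against 48.5, 65.7 and 136 CPM, again without overlap, and rose by 1.98 ± 0.35 (SE, adjusted p = 1.0e-04). Col7a1, which forms the anchoring fibrils beneath stratified epithelium, had 4.79, 5.81 and 3.54 CPM against 8.20, 9.14 and 19.9 CPM and rose by 1.26 ± 0.32 (SE, adjusted p = 0.0025). Among the transmembrane collagens Col13a1 (1.90 ± 0.32, adjusted p = 6.7e-05) and Col23a1 (1.90 ± 0.44, adjusted p = 0.0013) rose. The groups overlapped in Col23a1, where set 2 replicate 6 (8.91 CPM) lay below wild-type replicate 3 (11.2 CPM). Col25a1 fell (-1.65 ± 0.57, adjusted p = 0.02), a call lost without wild-type replicate 3 (-0.77, adjusted p = 0.32). Col17a1, a hemidesmosome component of basal keratinocytes, had 0.265, 0.209 and 0.342 CPM against 0.196, 0.3004 and 1.02 CPM and was not called.

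Genes that build and cut collagen were counted in the same way, beside 26.9% of all genes called higher and 26.2% lower. Of 21 genes for folding and modifying collagen 12 rose and 2 fell. They included the lysyl hydroxylase Plod3 (1.63 ± 0.11, adjusted p = 2.2e-09), the galactosyltransferase Colgalt1 (1.90 ± 0.17, adjusted p = 4.7e-08) and the prolyl hydroxylase subunit P4ha2 (2.40 ± 0.31, adjusted p = 3.8e-06). Of 14 genes for procollagen processing and crosslinking 12 rose and none fell, among them the crosslinking enzymes Lox (3.21 ± 0.42, adjusted p = 4.1e-06) and Loxl2 (1.89 ± 0.26, adjusted p = 7.5e-06) and Pcolce (2.04 ± 0.31, adjusted p = 2.0e-05), an enhancer of C-propeptide removal. Of 12 genes of collagen degradation and its inhibitors 10 rose and none fell, with Mmp10 (7.52 ± 0.87, adjusted p = 8.8e-07) and Mmp3 (7.02 ± 0.94, adjusted p = 5.1e-06), both matrix proteases, beside the inhibitor Timp1 (3.89 ± 0.33, adjusted p = 2.5e-08). Collagen receptors gave 4 higher and none lower of 9, led by the integrin chain Itga2 (2.88 ± 0.48, adjusted p = 5.8e-05). Fibril partners gave 6 higher and none lower of 14, with Sparc (1.80 ± 0.22, adjusted p = 1.5e-06) and Fn1 (3.31 ± 0.67, adjusted p = 3.9e-04). Fn1 varied widely, with a mean of 1529 CPM and an SD of 1856 CPM in the Cdx2-/- cecum. Its wild-type mean was 111 CPM with an SD of 75.2 CPM. Basement membrane partners gave 9 higher and 2 lower of 14, with the laminin chain Lama5 (2.18 ± 0.21, adjusted p = 7.6e-08) among the higher. All adjusted p-values are from the edgeR fit over all genes.

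Of the markers of cells that make collagen some moved and others did not, beside 26.9% of all genes called higher and 26.2% lower. The summed level of 10 fibroblast markers other than collagens was 219.6 to 669.8 CPM in the wild-type cecum, 672 to 785 CPM in set 1 and 722 to 1037 CPM in set 2, and 4 of the 10 rose, none falling. Without Gsn the sums were 119.7 to 392, 427 to 549 and 498 to 857 CPM. Much of the rest was Dcn, also a fibril partner, at 233 to 354 CPM in set 1 and 241 to 513 CPM in set 2. In the wild-type cecum Dcn stood at 35.6, 34.6 and 151 CPM. How far the sums part without Dcn was not tested. Of 10 smooth muscle markers none rose and 1 fell (sums of 1233 to 4126 CPM in the wild-type, 1491 to 1643 in set 1 and 1456 to 3163 in set 2). Of 8 endothelial markers 5 rose, and of 8 epithelial markers 1 rose and 5 fell. Of 7 squamous basal markers 4 rose, of 5 pericyte markers 3 rose and 1 fell, and of 6 immune markers 4 rose and 1 fell. No marker of the fibroblast, smooth muscle, endothelial and epithelial lists was at 0 in either group. Their part in the collagen changes was not tested.

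**Figure D2:**
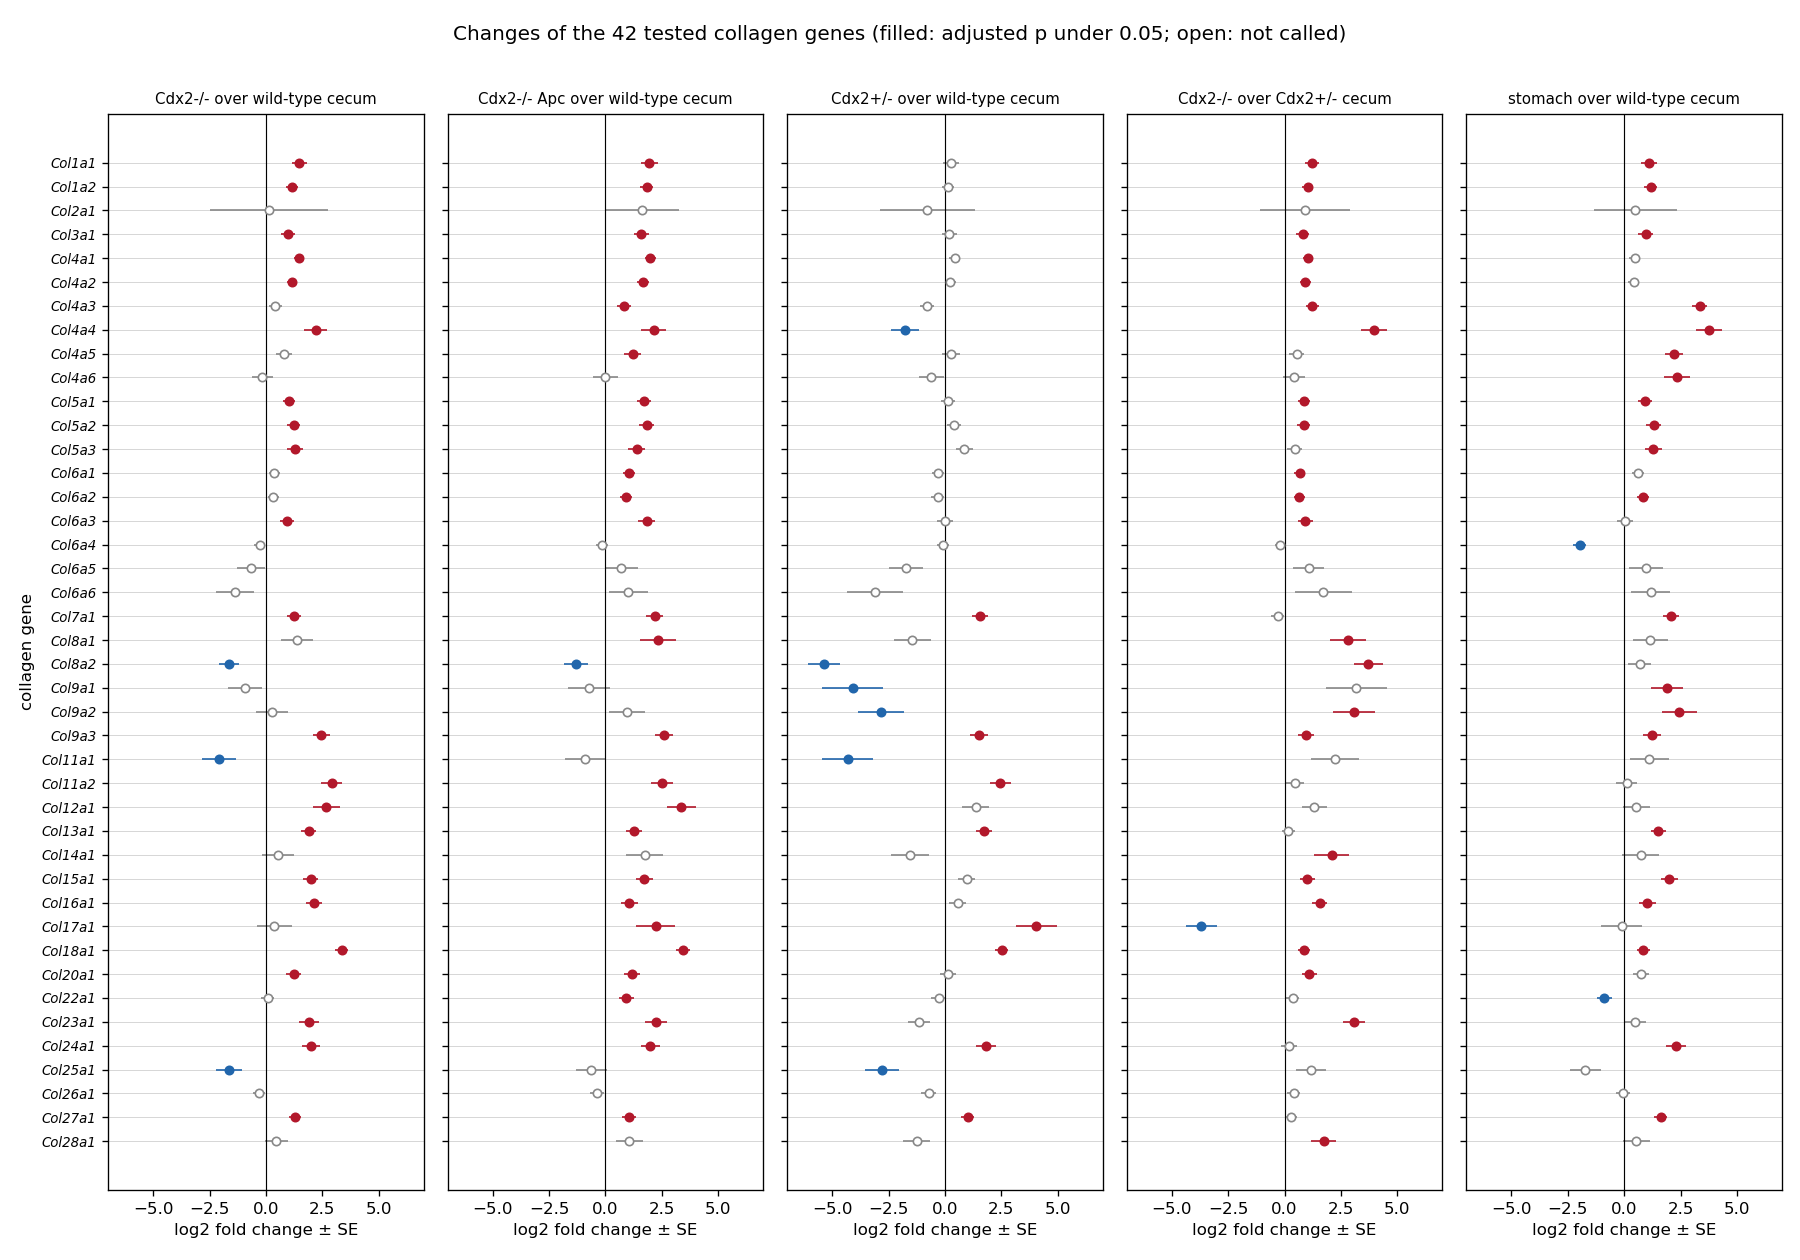
Log2 fold changes ± SE of the 42 tested collagen genes in 5 comparisons (first group minus second). Filled red points were called higher and filled blue points lower at an adjusted p under 0.05, and open grey points were not called. In the 2 left panels most filled points lie to the right of 0, with 22 and 29 called higher, whereas the middle panel has 8 to the right and 6 to the left.

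With a mutant Apc allele added, the Cdx2-/- Apc+/- cecum had 29 of 42 collagen genes higher and 1 lower than the wild-type cecum. Over all genes 26.6% were called higher and 26.1% lower, and the median log2 fold change was 1.49 over the members and 0.07 over all genes. In 28 of 42 members the groups did not overlap, beside 55.5% of all genes. Without TMM scaling 29 and 0 were called, with the median of all genes at 0.50 and the share of higher among all called genes at 72.7% in place of 50.4%. This comparison uses the same wild-type libraries as the one above, so the values below stand side by side and are no independent support.

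Fibril-forming chains gave 9 higher and none lower of 11. Col1a1 stood at 352, 289 and 409.5 CPM, Col1a2 at 514, 468 and 479 CPM and Col3a1 at 1050.3, 883 and 945 CPM in the Cdx2-/- Apc+/- cecum, each above every wild-type library. Their log2 rises were 1.95 ± 0.36, adjusted p = 1.9e-04 for Col1a1, 1.83 ± 0.29, adjusted p = 3.5e-05 for Col1a2 and 1.58 ± 0.34, adjusted p = 6.6e-04 for Col3a1. The type V chains reached 115, 122 and 143 CPM for Col5a1, 177, 163 and 191 CPM for Col5a2 and 29.9, 21.2 and 50.8 CPM for Col5a3. All 3 were called higher without overlap. Col27a1, at 19.9, 14.1 and 29.9 CPM, overlapped the wild-type range and was called higher (1.05 ± 0.30, adjusted p = 0.0061), but not without Cdx2-/- Apc+/- replicate 3 (0.73, adjusted p = 0.056).

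Of the basement membrane chains 5 of 6 rose. Col4a1, at 471, 588 and 635 CPM, rose by 1.99 ± 0.26 (SE, adjusted p = 4.3e-06) and Col4a2, at 266, 342 and 399 CPM, by 1.67 ± 0.26 (SE, adjusted p = 3.7e-05). Col4a5, at 21.8, 15.5 and 30.3 CPM, was called higher (1.20 ± 0.39, adjusted p = 0.015). Its value was 1.05, adjusted p = 0.068 without wild-type replicate 1, 0.89, adjusted p = 0.084 without replicate 2, 1.85, adjusted p = 6.6e-04 without replicate 3 and 0.93, adjusted p = 0.079 without Cdx2-/- Apc+/- replicate 3. Col4a4 rose (2.14 ± 0.56, adjusted p = 0.0033), and the call of Col4a3 (0.82 ± 0.32, adjusted p = 0.035) was lost without any 1 of the 6 libraries, at adjusted p-values of 0.063 to 0.088. Col4a6, at 3.68, 3.19 and 8.72 CPM, was not called.

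All 3 chains of the common type VI trimer were called higher in this group. Col6a1 stood at 236, 303 and 257 CPM, above every wild-type library (1.06 ± 0.27, adjusted p = 0.003). Col6a2 stood at 170.0, 225 and 199.6 CPM (0.91 ± 0.28, adjusted p = 0.01, and 0.66, adjusted p = 0.067 without wild-type replicate 2). Col6a3 stood at 187, 210.5 and 198 CPM, the clearest of the 3 (1.82 ± 0.37, adjusted p = 4.4e-04). The 6 members called with the largest changes were Col18a1, Col12a1, Col9a3, Col11a2, Col8a1 and Col23a1. Col18a1, at 306, 557 and 388 CPM, rose by 3.44 ± 0.31 (SE, adjusted p = 9.0e-08), and Col12a1, at 282, 184 and 295 CPM, by 3.36 ± 0.65 (SE, adjusted p = 2.7e-04). Neither overlapped the wild-type cecum. Col9a3 (2.61) stood at 5.70, 6.87 and 15.6 CPM and Col11a2 (2.51) at 11.5, 25.1 and 28.6 CPM. Col8a1, at 9.55, 6.45 and 9.66 CPM, was called at 2.32 ± 0.81, adjusted p = 0.022, which became 1.86, adjusted p = 0.088 without wild-type replicate 1, 1.81, adjusted p = 0.079 without replicate 2 and 4.90, adjusted p = 4.1e-05 without replicate 3. Col23a1, a transmembrane collagen, stood at 26.0, 30.6 and 37.8 CPM (2.26 ± 0.49, adjusted p = 7.4e-04).

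Col7a1 stood at 20.99, 21.5 and 21.4 CPM (2.18 ± 0.36, adjusted p = 5.8e-05) and Col15a1 at 74.9, 36.1 and 75.6 CPM (1.72 ± 0.38, adjusted p = 8.7e-04). Both lay above the wild-type range in all 3 libraries. Col14a1, at 33.9, 11.2 and 22.7 CPM, had a log2 fold change of 1.74 ± 0.82, adjusted p = 0.083, and of 4.14, adjusted p = 2.8e-04 without wild-type replicate 3. Col17a1, at 0.659, 1.23 and 2.00 CPM, was called higher (2.23 ± 0.87, adjusted p = 0.038), and its call was lost without wild-type cecum replicate 1 (0.093) or 2 (0.11) or 3 (0.061) or without Cdx2-/- Apc+/- cecum replicate 2 (0.059) or 3 (0.13). The only member lower was Col8a2 (-1.31 ± 0.54, adjusted p = 0.049), a call lost without any 1 of the 6 libraries (adjusted p of 0.058 to 0.14). The calls of Col16a1, Col20a1 and Col22a1 each rested on single libraries. Col16a1 (1.06 ± 0.37, adjusted p = 0.023) was lost without wild-type cecum replicate 1 (0.056) or 2 (0.11) or without Cdx2-/- Apc+/- cecum replicate 3 (0.075). Col20a1 (1.18 ± 0.37, adjusted p = 0.011) was lost without wild-type cecum replicate 2 (0.051) or without Cdx2-/- Apc+/- cecum replicate 2 (0.058), and Col22a1 (0.92 ± 0.32, adjusted p = 0.022) without wild-type cecum replicate 1 (0.059) or 2 (0.072) or without Cdx2-/- Apc+/- cecum replicate 3 (0.066).

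Of the surrounding genes, 13 of 21 for folding rose and 1 fell, 12 of 14 for processing and crosslinking rose, 6 of 9 receptors rose and 1 fell, 10 of 12 for degradation rose, 9 of 14 fibril partners rose, and 11 of 14 basement membrane partners rose and 1 fell. The shares over all genes were 26.6% higher and 26.1% lower. Lox rose by 4.91 ± 0.48, adjusted p = 2.4e-07 and Mmp14, the membrane-bound collagenase, by 2.54 ± 0.26, adjusted p = 3.5e-07 in the edgeR fit. Fibroblast markers summed to 849 to 949.6 CPM with 5 of 10 higher, and smooth muscle markers to 1623 to 2169 CPM with 1 of 10 lower. Their part in the result was not tested.

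Against the Cdx2-/- cecum itself, the Cdx2-/- Apc+/- cecum showed no collagen gene past the edgeR threshold, where 3.93% of all genes were called higher and 4.5% lower. At an unadjusted p under 0.05 14 members were higher and 2 lower, beside 12.3% and 12.8% of all genes. DESeq2 called 6 members higher and 1 lower, beside 6.12% and 6.9% of the genes to which it gave an adjusted p. The median log2 fold change of the members was 0.51 against 0.02 over all genes. Without set 2 replicate 5 the edgeR fit called 5 higher, among them Col1a2 (0.85, adjusted p = 0.026) and Col4a1 (0.68, adjusted p = 0.032). Set 1 alone as the reference gave 13 higher and 1 lower, and set 2 alone gave none. Col16a1 had the lowest adjusted p of the members that were lower (-1.06 ± 0.33, adjusted p = 0.055) and passed without set 1 replicate 1 (-1.26, adjusted p = 0.0073). Lox (1.70 ± 0.34, adjusted p = 0.0074), Loxl2 (0.97 ± 0.23, adjusted p = 0.017) and Mmp14 (0.93 ± 0.21, adjusted p = 0.011) were called higher among the surrounding genes.

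The 2 Cdx2-/- sets differed in no collagen gene by the edgeR test, with 4.03% of all genes called higher in set 2 and 6.45% lower. Unadjusted, 11 members were higher and 1 lower at p under 0.05, beside 12.4% and 14.1% of all genes. DESeq2 called 2 members higher and 0 lower, beside 6.17% and 7.01% of its genes. The median was 0.46 against 0.03 over all genes. Col4a5 (1.11 ± 0.39, adjusted p = 0.076) and Col22a1 (0.95 ± 0.32, adjusted p = 0.064) had the lowest adjusted p-values. Set 1 replicate 1 stood apart from replicates 2 and 3 in Col12a1, Col16a1 and Col11a2, where it was the lowest of the set at 46.5, 29.2 and 19.5 CPM.

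In the cecum labelled Cdx2+/- 8 of 42 members were higher and 6 lower than in the wild-type cecum. Both counts were near the shares over all genes, 17.1% higher and 17.3% lower, and are no result about collagen genes as a group. The median was 0.07 over the members and -0.05 over all genes, and 21 of 42 members did not overlap, beside 48% of all genes. Without TMM scaling the members also gave 8 and 6, while the share of higher among all called genes went from 49.7% to 60.8%. Wild-type replicate 3 weighed heavily here too. Without it 12 were higher and 1 lower.

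The main fibrillar chains of the lamina propria were not called in the libraries labelled Cdx2+/-. Col1a1 stood at 93.0, 119 and 114 CPM (0.26 ± 0.35, adjusted p = 0.61), Col1a2 at 122, 175 and 152 CPM (0.13 ± 0.28, adjusted p = 0.76) and Col3a1 at 268, 387 and 438 CPM (0.19 ± 0.33, adjusted p = 0.7). All 3 overlapped the wild-type cecum. The type V chains stood at 35.8, 50.9 and 42.1 CPM for Col5a1, 43.2, 73.3 and 80.9 CPM for Col5a2 and 24.0, 20.6 and 25.4 CPM for Col5a3. None was called, but Col5a2 (0.85, adjusted p = 0.047) and Col5a3 (1.18, adjusted p = 0.035) passed without wild-type replicate 3. Type IV stood at 172, 189 and 211 CPM for Col4a1 and 109, 125 and 139 CPM for Col4a2, Col4a5 at 8.75, 13.4 and 13.1 CPM and Col4a6 at 2.93, 3.63 and 3.74 CPM, none called. Type VI stood at 80.7, 119 and 110.2 CPM for Col6a1, 65.9, 98.5 and 87.7 CPM for Col6a2 and 43.8, 61.9 and 64.3 CPM for Col6a3, all overlapping the wild-type range and not called.

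Col18a1 was high in these libraries as in the Cdx2-/- cecum, at 196, 241 and 218 CPM, and rose by 2.51 ± 0.30 (SE, adjusted p = 4.7e-06). Col11a2 stood at 19.9, 24.2 and 18.3 CPM (2.45 ± 0.47, adjusted p = 5.9e-04) and Col7a1 at 15.6, 13.2 and 12.8 CPM (1.56 ± 0.35, adjusted p = 0.0021). None of the 3 overlapped the wild-type cecum. Col13a1, Col24a1, Col9a3 and Col27a1 were also higher. The call of Col27a1 (1.01 ± 0.30, adjusted p = 0.013), at 17.0, 20.1 and 25.1 CPM, was lost without wild-type cecum replicate 1 (0.057) or 2 (0.073) or without Cdx2+/- replicate 3 (0.059). Col17a1 was high in replicates 1 and 3 and below the wild-type range in replicate 2, with 7.84, 0.122 and 5.84 CPM, and was called higher (4.06 ± 0.91, adjusted p = 0.002). Col12a1, at 51.2, 62.9 and 74.8 CPM, and Col15a1, at 38.8, 33.6 and 38.4 CPM, lay above the wild-type range but passed only without wild-type replicate 3 (1.997, adjusted p = 0.03 and 1.27, adjusted p = 0.025). Markers of squamous basal epithelium, among them Krt5 and Krt14, moved beside these members. All 7 were called higher, but not in every library. Krt5 stood at 197, 0.382 and 122 CPM and Krt14 at 218, 1.01 and 106 CPM, so that replicate 2, also the lowest in Col17a1, was at the wild-type level of both (1.22, 0.376 and 0.0743 CPM and 1.30, 0.565 and 1.07 CPM). Itga6 (578, 633 and 703 CPM) and Itgb4 (403, 391 and 482 CPM) were high in all 3 and held most of the sum of the list, which was 1028 to 1433 CPM against 455 to 558 CPM. The part of these cells in the result was not tested.

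The members lower in the libraries labelled Cdx2+/- were low in counts there. Col8a2 fell from 2.12, 1.88 and 3.13 to 0, 0.0868 and 0.0733 CPM (-5.36 ± 0.70, adjusted p = 1.3e-05) and Col11a1 from 0.477, 0.188 and 2.02 to 0, 0.0521 and 0.0733 CPM (-4.32 ± 1.13, adjusted p = 0.006, and -2.85, adjusted p = 0.061 without wild-type replicate 3). Both groups were apart in every library. Col9a1 had 0 reads in the 3 Cdx2+/- libraries against 6 reads in the 3 wild-type libraries, and its call was lost without wild-type cecum replicate 3 (0.26) or without Cdx2+/- replicate 1 (0.064) or 2 (0.07) or 3 (0.069). Col9a2 (-2.82 ± 1.01, adjusted p = 0.037), with 0, 0.0868 and 0.0366 CPM, lost its call without wild-type cecum replicate 3 (0.23) or without Cdx2+/- replicate 1 (0.12) or 3 (0.1). Col25a1 (-2.80 ± 0.75, adjusted p = 0.0068) lost its call without wild-type cecum replicate 3 (0.055). Col4a4 (-1.76 ± 0.62, adjusted p = 0.033) lost its call without wild-type cecum replicate 3 (0.2) or without Cdx2+/- replicate 1 (0.1) or 2 (0.1). Col14a1, at 1.91, 2.14 and 2.88 CPM (-1.55 ± 0.84, adjusted p = 0.16), was not called. Smooth muscle markers fell in 9 of 10 cases, with a sum of 146 to 583 CPM against 1233 to 4126 CPM, and 6 of 8 markers of enteric glia and neurons fell. Of 10 fibroblast markers 1 rose and 3 fell, and they summed to 774 to 836 CPM against 219.6 to 669.8 CPM. Gsn, the marker that rose, held most of that sum, and the other 9 summed to 212 to 319 CPM against 119.7 to 392 CPM, with overlap. Their part in the lower collagen levels was not tested.

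Of the surrounding genes in these libraries, folding gave 5 higher and 1 lower of 21, processing 5 and 0 of 14, receptors 1 and 0 of 9, degradation 4 and 0 of 12, fibril partners 0 and 2 of 14 and basement membrane partners 6 and 0 of 14. These counts and those of the markers above stand beside 17.1% higher and 17.3% lower over all genes. The fibril partners that fell were Ogn (-2.67 ± 0.65, adjusted p = 0.0037) and Lum (-2.61 ± 0.78, adjusted p = 0.014), both leucine-rich proteoglycans. Mmp10 (7.02 ± 0.87, adjusted p = 7.5e-06) rose.

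Set directly against the libraries labelled Cdx2+/-, the Cdx2-/- cecum had 23 collagen genes higher and 1 lower, beside 19.7% higher and 20.6% lower over all genes. The median was 0.94 (0.93 with Col9a1 at its bound, computed from a floor of 3 counts over a group at 0) against 0.05 over all genes, and 21 of 42 members did not overlap, beside 37.6% of all genes. Without TMM scaling 25 and 1 were called, the median of all genes was 0.35 and the share of higher among all called genes 74.7% in place of 48.9%. The counts moved with single libraries. Leaving out Cdx2+/- replicate 1 left 10 higher, replicate 2 or 3 left 14 each, and set 1 alone gave 11. Type I rose, with Col1a1 at 1.22 ± 0.32, adjusted p = 0.006 and Col1a2 at 1.03 ± 0.25, adjusted p = 0.004, and Col4a1 (1.06 ± 0.22, adjusted p = 0.0014) and Col4a2 (0.93 ± 0.23, adjusted p = 0.0045) rose beside it.

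The largest changes of this contrast were Col4a4 (3.97 ± 0.59, adjusted p = 9.6e-05), Col8a2 (3.71 ± 0.65, adjusted p = 3.5e-04), Col17a1 (-3.69 ± 0.68, adjusted p = 5.4e-04), Col9a2 (3.09 ± 0.93, adjusted p = 0.014), Col23a1 (3.07 ± 0.48, adjusted p = 1.3e-04) and Col8a1 (2.83 ± 0.79, adjusted p = 0.0092). Col23a1 stood at 1.93, 2.83 and 4.03 CPM in the libraries labelled Cdx2+/-. In the Cdx2-/- cecum it stood at 8.91, 24.6 and 36.9 CPM (lowest, median and highest), without overlap. Col8a1 stood at 0.434, 0.677 and 0.751 CPM against 2.00, 3.70 and 9.14 CPM (again lowest, median and highest), also without overlap. Col4a4 stood at 0.109, 0.104 and 0.183 CPM, below every Cdx2-/- library. Col17a1 stood at 7.84, 0.122 and 5.84 CPM in the libraries labelled Cdx2+/- and at 0.196 to 1.02 CPM in the Cdx2-/- cecum. Its fall rested on Cdx2+/- replicates 1 and 3, since replicate 2 lay below every Cdx2-/- library. The call of Col9a2 was lost without Cdx2+/- replicate 1 (0.065) or 3 (0.053). Col3a1, Col5a1, Col5a2, the 3 common type VI chains, Col9a3, Col14a1, Col15a1, Col18a1, Col20a1 and Col28a1 were called higher in the full fit and lost their calls without at least 1 library. The call of Col18a1 (0.86 ± 0.25, adjusted p = 0.012) was lost without Cdx2+/- replicate 1 (0.062), and that of Col5a1 (0.87 ± 0.27, adjusted p = 0.017) without Cdx2+/- replicate 1 (0.086) or 3 (0.055). Without Cdx2+/- replicate 1 the adjusted p was 0.18 for Col3a1, 0.15 for Col5a2 and Col6a1, 0.19 for Col6a2, 0.13 for Col6a3, 0.082 for Col9a3, 0.12 for Col14a1, 0.06 for Col15a1, 0.055 for Col20a1 and 0.068 for Col28a1.

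In the same contrast all 10 smooth muscle markers and 8 of 10 fibroblast markers rose (1 fell), and 6 of 7 squamous markers fell. The squamous falls rested on Cdx2+/- replicates 1 and 3. In replicate 2 Krt14, Trp63 and Dsg3 (1.01, 0.0174 and 0.764 CPM) lay below every Cdx2-/- library (lowest 3.07, 0.0475 and 1.32 CPM). Krt5, Krt15 and Itgb4 of that replicate lay within the Cdx2-/- range. Of the markers of enteric glia and neurons 7 of 8 rose, of endothelium 6 of 8, of pericytes 4 of 5 and of mesothelium 4 of 5 (1 fell), while 6 of 8 epithelial markers fell. Their part in the collagen differences was not tested. Folding genes gave 13 higher of 21 with none lower, processing 9 and 1 of 14, receptors 3 and 1 of 9, degradation 6 and 0 of 12, fibril partners 11 and 0 of 14, and basement membrane partners 6 and 2 of 14. The marker and list counts of this contrast stand beside 19.7% higher and 20.6% lower over all genes.

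In the wild-type stomach, compared with the wild-type cecum, 21 collagen genes were higher and 2 lower, beside 22.1% and 21.6% of all genes. The median was 0.96 against 0.04 over all genes, and 25 of 42 members did not overlap, beside 51.4% of all genes. Without wild-type cecum replicate 2 only 12 members were higher. Of the 6 members called with the largest changes 4 were the less common type IV chains. Col4a3 stood at 14.1, 20.3 and 10.9 CPM against 1.56, 1.55 and 1.34 CPM (3.35 ± 0.34, adjusted p = 2.5e-07), and Col4a4 at 6.45, 7.63 and 4.51 CPM (3.76 ± 0.58, adjusted p = 3.4e-05). Col4a5 stood at 37.5, 43.4 and 54.3 CPM (2.20 ± 0.40, adjusted p = 2.0e-04) and Col4a6, which pairs with it in the basement membrane of smooth muscle, at 20.6, 26.9 and 31.4 CPM (2.33 ± 0.57, adjusted p = 0.0024). All 4 lay above the wild-type cecum in every library. The common chains Col4a1, at 179, 181 and 232 CPM (0.47 ± 0.25, adjusted p = 0.13), and Col4a2, at 112, 139 and 172 CPM (0.42 ± 0.26, adjusted p = 0.2), were not called.

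Fibril-forming chains gave 8 higher and none lower of 11 in the stomach. Col1a1 stood at 153, 186 and 249 CPM (1.11 ± 0.35, adjusted p = 0.015) and lost its call without wild-type cecum replicate 2 (0.089) or without stomach replicate 3 (0.073). Col1a2 stood at 264, 299.8 and 363 CPM (1.17 ± 0.28, adjusted p = 0.0023) and Col24a1 rose from 0.583, 0.460 and 1.32 to 3.86, 4.03 and 4.00 CPM (2.31 ± 0.44, adjusted p = 2.8e-04). Col3a1 (0.96 ± 0.33, adjusted p = 0.025), at 482, 528 and 852 CPM, lost its call without wild-type cecum replicate 1 (0.11) or 2 (0.13) or without stomach replicate 3 (0.15) and stood at 1.51 without cecum replicate 3. The type V chains stood at 57.4, 70.9 and 95.2 CPM for Col5a1, 107, 113 and 152 CPM for Col5a2 and 25.1, 29.7 and 40.0 CPM for Col5a3, all called higher. The call of Col5a1 was lost without wild-type cecum replicate 1 (0.057) or 2 (0.1) or without stomach replicate 3 (0.093), and that of Col5a3 without wild-type cecum replicate 2 (0.058). Col27a1 stood at 24.0, 30.8 and 40.2 CPM (1.62 ± 0.30, adjusted p = 2.2e-04), above every wild-type cecum library.

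Of 6 type VI chains 1 was higher and 1 lower in the stomach. Col6a4 stood at 20.5, 13.5 and 17.8 CPM in the stomach against 78.1, 63.9 and 60.0 CPM in the cecum and fell by 1.96 on the log2 scale (SE 0.29, adjusted p = 2.0e-05), without overlap. Col6a1 stood at 160.1, 195 and 225 CPM (0.60 ± 0.27, adjusted p = 0.076, and 0.86, adjusted p = 0.02 without cecum replicate 3), Col6a2 at 163, 193 and 209 CPM (0.84 ± 0.28, adjusted p = 0.02) and Col6a3 at 41.3, 40.6 and 90.3 CPM (0.03 ± 0.36, adjusted p = 0.96). Of these 3 chains only Col6a2 was called, and its call was lost without wild-type cecum replicate 1 (0.052) or 2 (0.12) or without stomach replicate 3 (0.065). Col15a1, at 73.1, 80.7 and 72.9 CPM (2.000 ± 0.38, adjusted p = 2.9e-04), and Col7a1, at 15.3, 24.5 and 20.2 CPM (2.09 ± 0.36, adjusted p = 1.0e-04), lay above the cecum without overlap. Col18a1, at 73.4, 62.2 and 73.1 CPM, was called (0.85 ± 0.28, adjusted p = 0.02) but its call was lost without wild-type cecum replicate 2 (0.11) or without stomach replicate 1 (0.05) or 3 (0.052). Col9a2 (2.45 ± 0.79, adjusted p = 0.016), at 0.966, 2.10 and 2.22 CPM, lost its call without wild-type cecum replicate 1 (0.064) or 2 (0.076). Col12a1, at 18.1, 27.5 and 62.1 CPM, and Col17a1, at 0.375, 0.114 and 0.273 CPM, were not called, and Col14a1, at 3.27, 4.47 and 25.8 CPM (0.73 ± 0.81, adjusted p = 0.49), passed only without cecum replicate 3 (3.13, adjusted p = 0.0025). Col22a1 (-0.89 ± 0.33, adjusted p = 0.035) was the other member lower and kept its call in no leave-out fit but that without stomach replicate 3.

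Fibroblast markers summed to 1469 to 2135 CPM in the stomach, with 5 of 10 higher and 1 lower. Most of this was Gsn, without which the sum was 307 to 632 CPM against 119.7 to 392 CPM in the cecum. Of 8 endothelial markers 5 rose, of 8 epithelial markers 1 rose and 4 fell, and smooth muscle markers to 2323 to 6799 CPM with none called. Their part in the collagen differences was not tested. Folding genes gave 15 higher and none lower of 21, processing 5 and 0 of 14, receptors 2 and 1 of 9, degradation 3 and 2 of 12, fibril partners 5 and 0 of 14 and basement membrane partners 4 and 2 of 14. The marker and list counts of the stomach stand beside 22.1% higher and 21.6% lower over all genes. P3h4 (2.23 ± 0.21, adjusted p = 8.0e-08) and P4ha2 (3.34 ± 0.35, adjusted p = 3.8e-07), both tied to collagen hydroxylation, had the lowest adjusted p-values of these lists.

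Of 42 collagen genes 1, Col16a1, was called between the ileum labelled Cdx2-/- Apc+/- and the ileum labelled Apc+/-. None was higher and 1 was lower, beside 0.395% higher and 0.0488% lower over all genes. In 10 of 42 members the groups did not overlap, beside 11.2% of all genes. Unadjusted, 4 members were higher and 2 lower at p under 0.05, beside 6.36% and 3.48% of all genes. DESeq2 called 1 member higher and 1 lower, beside 1.57% and 0.535% of its genes. The median was -0.01 over the members and 0.03 over all genes. Col16a1 stood at 152, 212 and 110.1 CPM in the Apc+/- ileum and at 33.5, 40.1 and 25.5 CPM in the Cdx2-/- Apc+/- ileum, without overlap. It fell by 2.26 on the log2 scale (SE 0.38, adjusted p = 0.012), and the call was lost without Cdx2-/- Apc+/- replicate 3 (-2.10, adjusted p = 0.055), without Apc+/- replicate 1 (-2.28, adjusted p = 0.053) and with only these 2 groups in the fit. Col23a1 came next (1.88 ± 0.48, adjusted p = 0.094) and was not called, at 2.54, 4.92 and 2.09 CPM against 10.9, 10.8 and 13.4 CPM, without overlap. Col4a5, at 7.47, 7.04 and 6.84 CPM against 11.8, 9.26 and 29.2 CPM, passed only without Cdx2-/- Apc+/- replicate 2 (1.53, adjusted p = 0.046).

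The abundant chains overlapped between both ileum groups. Col1a1 stood at 395, 703 and 400.3 CPM in the Apc+/- and 348, 543 and 232 CPM in the Cdx2-/- Apc+/- ileum. Col3a1 stood at 497, 898 and 524 against 774, 713 and 493 CPM, Col4a1 at 497, 781 and 551 against 623, 654 and 478 CPM, and Col18a1 at 227, 314 and 269 against 354, 311 and 201 CPM. In each, Apc+/- replicate 2 was the highest of its group. No gene of the 6 surrounding lists and no marker was called in this comparison by edgeR.

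Between cecum and ileum of the same Cdx2-/- Apc+/- genotype and treatment 1 collagen gene was higher and 5 were lower in the cecum, beside 6.6% and 9.59% of all genes. The median over the members was 0.43 against -0.02 over all genes. Without TMM scaling 0 and 7 were called, the median of all genes was -0.18 and the share of higher among all called genes went from 40.8% to 19.8%. With only these 2 groups in the fit none of the members, and none of all genes tested, was called in either direction. In the fit over all groups all 3 type IX chains were lower in the cecum. Col9a1 had 3 reads in the 3 cecum libraries and 62 in the 3 ileum libraries (adjusted p = 0.0022). Col9a2 stood at 0.0851, 0.301 and 1.49 CPM in the cecum and 4.60, 12.9 and 7.91 CPM in the ileum (-3.75 ± 0.80, adjusted p = 0.0044). Col9a3 stood at 5.70, 6.87 and 15.6 against 40.4, 75.2 and 81.8 CPM (-2.81 ± 0.40, adjusted p = 2.9e-04). No cecum library reached the lowest ileum library in any of the 3.

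The Apc+/- ileum held type IX chains at still higher values, with Col9a2 at 13.3, 14.4 and 14.6 CPM and Col9a3 at 103, 107 and 88.5 CPM, but this difference was not called (-0.74 ± 0.70, adjusted p = 0.85 and -0.60 ± 0.37, adjusted p = 0.68). Col2a1, with which type IX collagen is joined in cartilage, stood at 0.0213, 0.0694 and 0.0409 CPM in the Cdx2-/- Apc+/- cecum and 0.312, 0.380 and 1.10 CPM in the ileum (-3.72 ± 1.09, adjusted p = 0.026). Its call was lost without Cdx2-/- Apc+/- cecum replicate 1 (0.091) or 2 (0.069) or 3 (0.07) or without Cdx2-/- Apc+/- ileum replicate 3 (0.11). Col6a6, at 0.234, 0.116 and 0.736 against 3.19, 1.70 and 2.89 CPM (-2.82 ± 0.84, adjusted p = 0.028), lost its call without Cdx2-/- Apc+/- cecum replicate 1 (0.095) or 2 (0.12) or without Cdx2-/- Apc+/- ileum replicate 1 (0.054) or 3 (0.059). Col23a1 was the member higher in the cecum (1.43 ± 0.47, adjusted p = 0.045) and was called in none of the 6 fits that left out 1 library (0.068 to 0.12). Summed chondrocyte markers were 0.254 to 0.899 CPM in the cecum and 0.281 to 1.27 CPM in the ileum, and of 3 tested 1, Acan, was called lower in the cecum. Their part in the result was not tested.

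**Figure D3:**
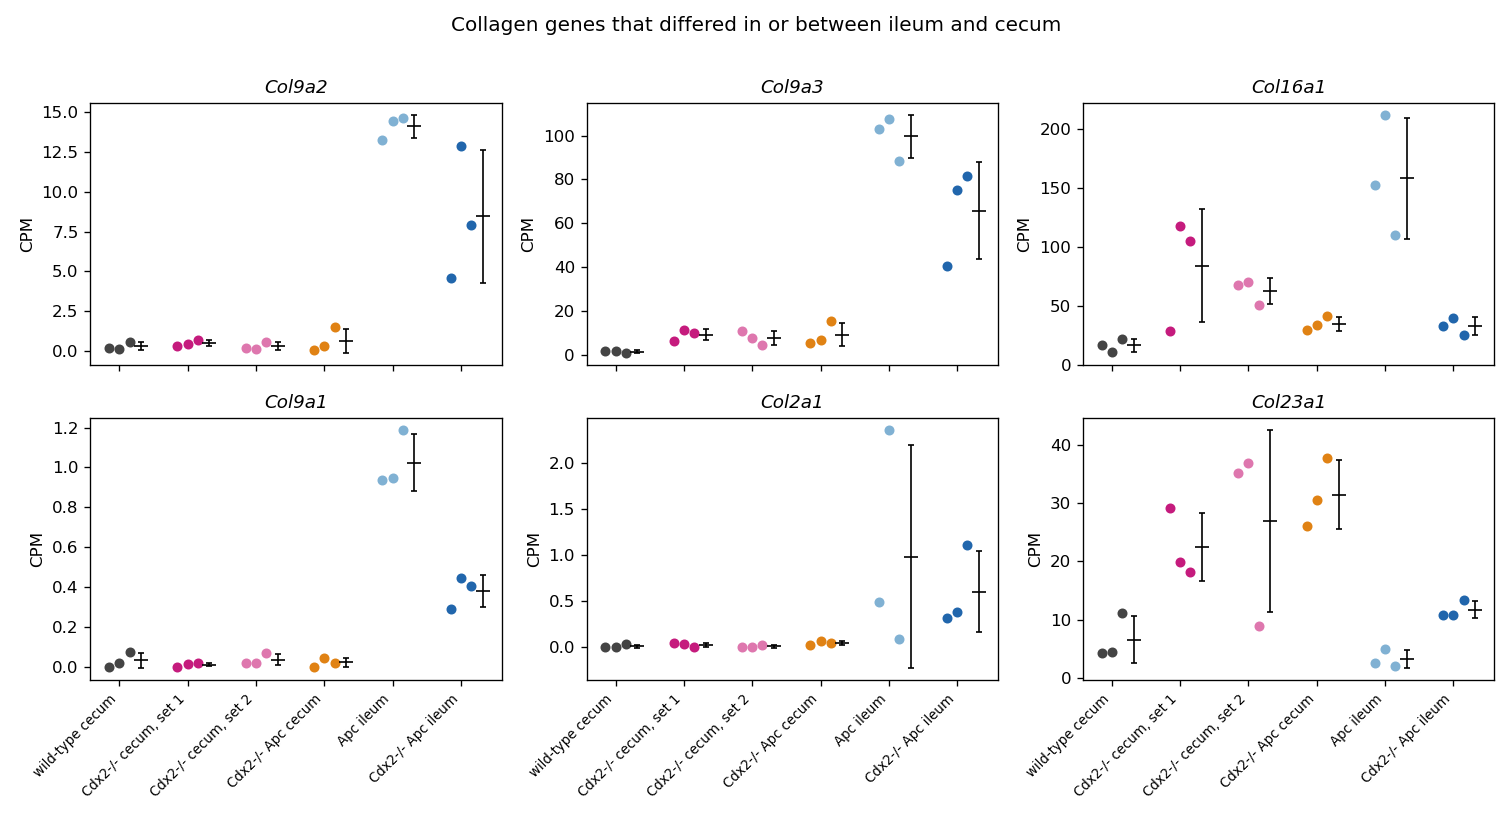
Levels in TMM-scaled CPM (linear axes) of 6 collagen genes in cecum and ileum groups, each point a library and the dash with bar the mean ± SD of 3. The ileum libraries of Col9a2 (4.60 to 14.6 CPM) and Col9a3 (40.4 to 107 CPM) lie above all cecum libraries, and Col16a1 separates the 2 ileum groups.

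The make-up of the collagen transcripts also differed between groups. Per length, fibril-forming chains took 44.0% ± 4.49 of the summed collagen FPKM in the wild-type cecum (SD, n = 3) and 43.1% ± 2.50 in the Cdx2-/- cecum (n = 6), with overlapping ranges. The share of type VI chains was 30.1% ± 2.46 in the wild-type (range 27.4% to 32.1%) and 16.1% ± 2.41 in the Cdx2-/- cecum (range 13.9% to 20.1%). Multiplexins took 4.63% ± 0.353 (range 4.25% to 4.95%) against 16.3% ± 2.72 (range 12.6% to 19.0%). Neither range overlapped. With lengths taken over all annotated exons the type VI share was 28.9% to 33.1% against 13.9% to 21.1% and the multiplexin share 4.38% to 4.88% against 12.4% to 18.4%, again apart. These shares are descriptions without a test, since the parts of a whole are bound to each other.

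The other groups lay between or beside these. The libraries labelled Cdx2+/- had type VI at 19.2% ± 1.57 and multiplexins at 16.5% ± 1.55, the Cdx2-/- Apc+/- cecum 18.2% ± 1.82 and 12.1% ± 2.57, and the stomach 23.4% ± 1.58 and 6.39% ± 1.23. In the Apc+/- ileum the fibril-associated class took 13.6% ± 1.92 of collagen FPKM, against 8.18% ± 1.37 in the Cdx2-/- Apc+/- ileum and 3.34% ± 0.334 in the wild-type cecum. Col9a3 and Col16a1 ranked 8 and 9 among all members there, at 32.7 ± 3.24 and 30.4 ± 9.83 FPKM.

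**Figure D4:**
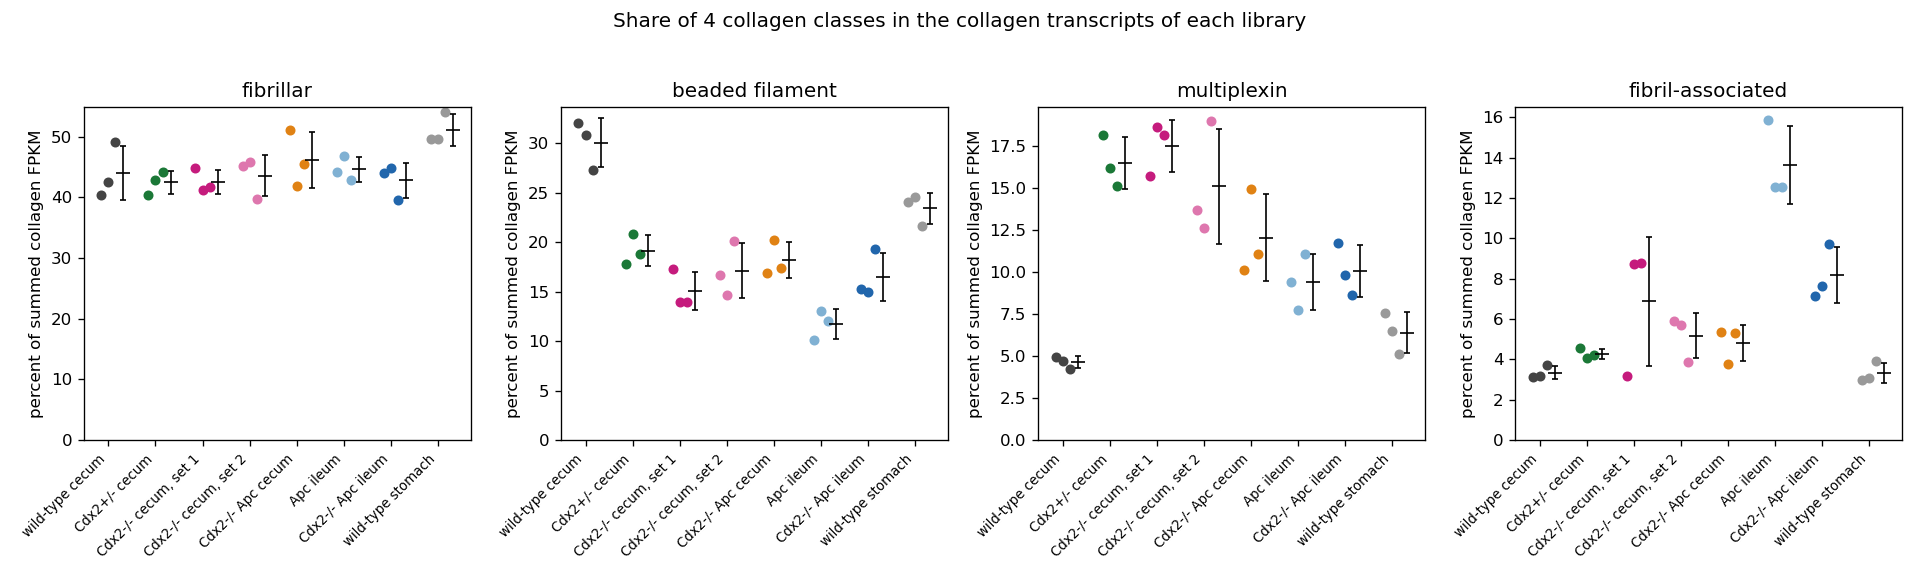
Share of 4 collagen classes in the summed collagen FPKM of each library, in percent, with each point a library and the dash with bar the mean ± SD of 3. Type VI (beaded filament) is highest in the wild-type cecum, at 27.4% to 32.1%, where the multiplexins are lowest, at 4.25% to 4.95%.

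Chains that share a trimer were compared by their ratio. Per length, Col6a1 to Col6a2 was 0.944 to 1.41 over the 24 libraries, while the ratio of Col4a5 to Col4a6 ran from 1.64 to 13.4. Type I collagen is built of both Col1a1 and Col1a2, with more of the former. The ratio of Col1a1 to Col1a2 transcripts averaged 0.589 in the wild-type cecum (range 0.525 to 0.649) and 0.944 in set 1 (0.735 to 1.08). It averaged 0.590 in set 2 (0.577 to 0.601) and 1.06 in the Apc+/- ileum (0.982 to 1.11). With lengths over all annotated exons it was 1.24, 1.98, 1.24 and 2.22 in the same groups, since another length multiplies every library by the same factor. Col3a1 to Col1a1 averaged 3.70 in the wild-type cecum, 2.10 in set 1, 3.71 in set 2 and 1.37 in the Apc+/- ileum. Here set 1 ran from 1.61 to 2.98 and overlapped the wild-type range of 2.82 to 4.36. In both ratios set 1 replicate 1 lay nearer the wild-type cecum than the nearly alike replicates 2 and 3.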

How the data were processed

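Total RNA, extracted with Trizol from mouse cecum, ileum and stomach, was made into TruSeq mRNA version 2 libraries, per the labels' protocols. The authors deposited 1 table of raw read counts per gene for each of the 24 libraries. The submitters' processing notes name CASAVA, TopHat2 2.0.11, HTSeq 0.5.3p3 and the genome build GRCm38, without their settings. Rows that name no gene were left out of library sizes.

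Counts were tested with edgeR 4.0.16 (R 4.3.3, limma 3.58.1) by quasi-likelihood F tests on all 8 groups, with TMM scaling, filterByExpr and Benjamini-Hochberg adjustment over 20502 genes. Calls needed an adjusted p under 0.05, and the SE was taken from the fold change and its F statistic. The test was tried on simulated counts. Alternatives were RLE size factors, library totals, no filter, DESeq2 1.42.0, only the groups compared, a replicate block, each Cdx2-/- set alone, set 1 replicates 2 and 3 summed, and leaving out each library. Lengths over all annotated exons were added after seeing the data. FPKM used GENCODE mRNA lengths on GRCm38.

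Same-numbered libraries did not correlate above 0.1 in every pair of any comparison, so replicate numbers were not taken to pair libraries. Library values were planned for 21 members chosen by role, and for the 6 called members of largest change per comparison. Not all are printed in every group, and the 6 Cdx2-/- cecum libraries are mostly given as lowest, median and highest. From each other list, up to 4 genes of smallest adjusted p were named. Gsn, Dcn, Krt5, Krt14, Itga6 and Itgb4 were singled out after their values were seen. The members and lists were chosen with earlier results of these data known.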

Additional observations from a re-analysis of the deposited data

Results flagged for a closer look

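Checked in the 6 Cdx2-/- cecum libraries were 43 items, the 42 tested collagen genes and the collagen share of gene reads. Of these 7, all genes, had 1 library far from the other 5, with a gap, relative to the whole range, past Dixon's 95% critical value. Chance alone gives this in about 1 of 20 genes if the 6 values are independent and normally distributed. CPM values pooled over 2 sets, with 2 nearly alike libraries, need not meet this, and genes of a library are not independent. Set 2 replicate 5 was the high library for 5 of the 7. It held 526 CPM of Col1a2 against 243 to 306 in the others, 703.2 CPM of Col4a1 against 301 to 436.5, 375.6 CPM of Col4a2 against 181 to 252.0, 135.8 CPM of Col15a1 against 48.5 to 73.6, and 0.3272 CPM of Col6a6 against 0.0218 to 0.115. Set 2 replicate 6 was high for Col9a1, at 0.06669 CPM against 0 to 0.0204, which rests on 3 reads. Set 2 replicate 4 was high for Col17a1, at 1.018 CPM against 0.196 to 0.356.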

How the results depend on the processing

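Over the tested members and comparisons no log2 fold change called in the full fit changed sign in a fit that left out 1 library (2646 values, of which 153 lost and 36 gained a call) or in the other alternatives (2625 values, of which 63 lost and 80 gained one). The cause of these changes was not tested. With library totals in place of TMM, members lower numbered 1 in the Cdx2-/- and 0 in the Cdx2-/- Apc+/- cecum against wild type and 1 in the stomach, members higher 1 between Cdx2-/- Apc+/- and Cdx2-/- cecum, and 0 between cecum and ileum. Without a filter the stomach had 1 lower and the cecum against the ileum 0 higher. DESeq2 called 11 lower in the Cdx2+/- cecum, 6 higher and 1 lower between Cdx2-/- Apc+/- and Cdx2-/- cecum, 2 higher between the sets and 1 higher in the ileum. With only the groups compared in the fit, members higher were 5 between Cdx2-/- Apc+/- and Cdx2-/- cecum and 1 between the sets, members lower 0 in the ileum, and both 0 between cecum and ileum. Set 1 alone gave 11 higher against Cdx2+/-, and 13 higher and 1 lower for Cdx2-/- Apc+/- against it, and set 2 alone 1 lower against wild type. With set 1 replicates 2 and 3 summed, the Cdx2-/- cecum had 22 higher and 4 lower against wild type and 20 and 1 against Cdx2+/-. That fit called no member between Cdx2-/- Apc+/- and Cdx2-/- cecum or between the sets.

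A replicate block, although the numbers do not pair the libraries, was fitted without set 2, whose numbers have no partner. It gave 20 higher and 1 lower for set 1 against wild type (20 and 2 for set 1 alone with no block), 14 higher against Cdx2+/- (11), 12 higher and 1 lower for Cdx2-/- Apc+/- against set 1 (13 and 1), and 1 lower in the stomach. The counts in parentheses differ from the full ones by leaving out set 2, not by a block. In the Cdx2+/- against wild-type comparison 6 of 6 libraries correlated best with their own number under this pairing check, a hint from the data and not the design.

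Leaving out 1 library at a time gave 20 to 27 higher and 1 to 4 lower for Cdx2-/- and 7 to 12 and 1 to 9 for Cdx2+/- against wild type, 10 to 23 and 1 for Cdx2-/- against Cdx2+/-, 12 to 25 and 1 to 2 for stomach, 21 to 29 and 0 to 1 for Cdx2-/- Apc+/- against wild type, 0 to 5 and 0 to 1 against Cdx2-/-, 0 and 0 to 1 between the sets, 0 to 1 and 0 to 1 in the ileum, and 0 and 3 to 5 between cecum and ileum. Col19a1 enters the lower counts where fewer libraries let it pass the filter. Members with a few reads per library, such as Col9a1, Col2a1 and Col19a1, are limited by counting error, and 3 libraries a group limit all calls.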
